A study of Homo sapiens with 9 samples.

Results

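Of 9 RNA sequencing libraries of Huh7 cells, 3 held the most mitochondrially encoded RNA of their group, and these 3 libraries are described here against the other 6. Huh7 is an established human line grown from a hepatocellular carcinoma, a liver cancer. The groups were control cells and 2 arms in which ZMAT2, a zinc finger protein of the spliceosome, was targeted with short hairpin RNAs, named shZMAT2-1 and shZMAT2-2, with 3 libraries each. The stated question of the study was whether ZMAT2 acts on liver cancer through splicing, and the labels as used here name no other agent, time point or control hairpin. The labels do not say that the replicates came from separate cultures, so any p-value measures only the spread between these libraries. In each group the library with the highest summed FPKM (fragments per kilobase of transcript, relative to library depth) of the 13 genes on the mitochondrial chromosome was taken: control replicate 2, shZMAT2-1 replicate 2 and shZMAT2-2 replicate 1. They are called the high libraries below. Since measured values chose them, their differences from the other libraries are described by size and spread and carry no p-value.

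Mitochondria keep a small circular genome that encodes 13 proteins, all subunits of the oxidative phosphorylation complexes, which respiratory cells use to make ATP. The remaining subunits of these complexes, the mitochondrial ribosomal proteins and the import machinery are encoded in the nucleus, translated in the cytosol and imported. Mitochondrial transcripts are made as long precursors from both strands and cut into single messages. Most of these messages, though not all, are given short poly(A) tails. Those with tails are captured with nuclear messages when poly(A) RNA is selected, as it was for these libraries.

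Control replicate 2 had a mitochondrial sum of 488331 FPKM, against 83579 and 88643 in replicates 1 and 3. In shZMAT2-1 the sum was 177053 in replicate 2 and 89025 and 82563 in replicates 1 and 3. In shZMAT2-2 it was 291278 in replicate 1 and 151646 and 177662 in replicates 2 and 3. The high library thus stood 5.67-fold, 2.06-fold and 1.77-fold above the mean of the other 2 of its group. The high library of shZMAT2-1 lay just below shZMAT2-2 replicate 3, which is not a high library, so "high" has a meaning only within a group. As a share of all fragments, mitochondrial genes took 43.2%, 16.4% and 27.0% in the high libraries of control, shZMAT2-1 and shZMAT2-2. The share was 7.70% to 8.28% in the other control and shZMAT2-1 libraries and 14.5% and 16.6% in the other shZMAT2-2 libraries. Sequencing depth was 22680000, 22710000 and 23050000 fragments in the high libraries and 18280000 to 23550000 in the others. The high library was the deepest of the control and shZMAT2-1 groups and not of shZMAT2-2, and the part of depth in the differences was not tested. In the shallowest library 5 FPKM on a transcript of median length stand for 270.1 fragments, with a counting error of 6.09% (Poisson SD).

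The mitochondrial RNA also differed in composition, which the sum does not fix. In all 3 groups, 6 of the 13 genes took a larger share of the mitochondrial FPKM in the high library than in both others, and all 6 encode subunits of complex I, the NADH dehydrogenase: MT-ND1, MT-ND2, MT-ND4, MT-ND4L, MT-ND5 and MT-ND6. A smaller share in all 3 groups was taken by 3 genes, MT-CO2 and MT-CO3 of cytochrome c oxidase and MT-CYB of complex III. MT-ND2 (mitochondrial positions 4470 to 5511) took 4.05%, 6.44% and 4.09% of the mitochondrial FPKM in control replicates 1, 2 and 3. Its shares in the same order were 4.35%, 5.55% and 4.46% in shZMAT2-1 and 5.91%, 5.19% and 5.36% in shZMAT2-2.

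MT-CO2 (positions 7586 to 8269) went the other way, with 15.9%, 8.35% and 16.4% in control. It had 16.9%, 12.5% and 17% in shZMAT2-1 and 10.9%, 12.5% and 13.6% in shZMAT2-2. The step in the control group was the larger one for both genes, as it was for the total. MT-ND3, also of complex I, did not follow the other complex I genes: its share was lower in the high library of control (1.11% against 2.06% and 2.44%) and of shZMAT2-1 (1.43% against 2.56% and 2.65%) and within the range of the others in shZMAT2-2. Counted by level, the high control library exceeded the mean of the other controls from 2.79-fold for MT-ND3 to 12-fold for MT-ND4L. MT-ATP8 overlaps MT-ATP6, MT-ND4L overlaps MT-ND4, and MT-ND6 lies on the opposite strand. With the strand setting of the counting not given in the sources used here, reads in those stretches may have been split between neighbours.

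**Figure D1:**
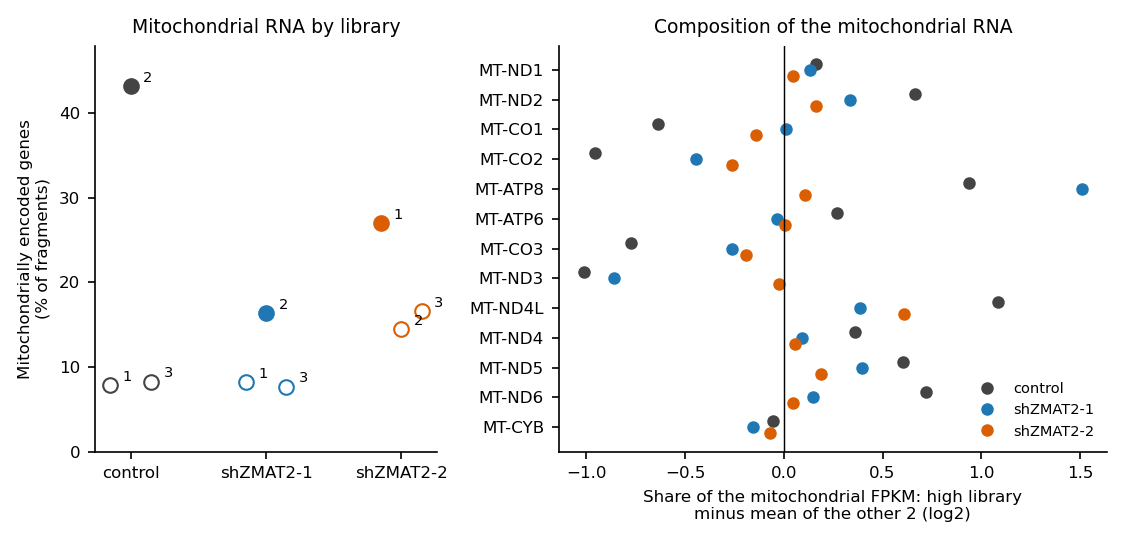
Left, share of all fragments from the 13 mitochondrially encoded genes (percent, vertical axis) in each library, with filled points for the high libraries and numbers for replicates. Right, log2 share of each gene in the mitochondrial FPKM in the high library minus the mean of the other 2 of its group (horizontal axis). MT-ND2 lies at 0.66, 0.33 and 0.16 and MT-CO2 at -0.95, -0.44 and -0.26 in control, shZMAT2-1 and shZMAT2-2.

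Nuclear genes were compared after each library had been rescaled to the same nuclear FPKM sum, so that the mitochondrial share itself does not lower every other value. Over 6416 nuclear protein-coding genes that reached 5 FPKM in 3 or more libraries, the difference was the log2(rescaled FPKM + 1) of the high library minus the mean of the other 2 of its group. The median absolute difference was 0.41 in control, 0.37 in shZMAT2-1 and 0.18 in shZMAT2-2, where the other 2 libraries of a group differed from each other by a median of 0.06, 0.08 and 0.17. In control and shZMAT2-1 the high library therefore departed from its group far more than the others did from each other, and in shZMAT2-2 by about as much. A gene was called when the high library lay above both others, or below both others, in all 3 groups. By this rule 1779 genes were higher (27.7%) and 1776 lower (27.7%) in the high libraries, 3555 in either direction (55.4%). With a mean difference of at least 1 on the log2 scale, which is 2-fold, 109 genes were higher (1.7%) and 73 lower (1.14%). The filter let some genes in only through the high libraries: 118 of the 1779 higher genes, and 13 of the 109, reached 5 FPKM in fewer than 3 of the 6 other libraries and so had to differ. Without them 1661 and 96 remained. The 109 higher and 73 lower genes became 22 and 20 without control replicate 2, which takes the control group out. They became 267 and 194 without shZMAT2-2 replicate 1, which takes the shZMAT2-2 group out. Of the 3555 called genes, the largest of the 3 differences was that of the control group in 2439, of shZMAT2-1 in 1012 and of shZMAT2-2 in 104. The split into higher and lower rests on the scaling: with FPKM as deposited, where the mitochondrial share lowers every nuclear value, the median difference over all genes was -0.39 instead of 0.04 and the counts were 374 higher and 3479 lower.

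The 3 groups give differences from separate libraries, which makes them comparable gene by gene. Across the 6416 genes, which are not independent replicates, the differences of control and shZMAT2-1 correlated at r = 0.82, of control and shZMAT2-2 at r = 0.87, and of shZMAT2-1 and shZMAT2-2 at r = 0.75. These values are descriptions of 3 pairs of libraries' profiles and share the table's normalization. Of 5809 genes in which the high library lay outside both others in control and in shZMAT2-1, 4784 had the same direction and 1025 the opposite one (17.7%). Between control and shZMAT2-2 the opposite direction was found in 377 of 4542 genes (8.30%), and between shZMAT2-1 and shZMAT2-2 in 700 of 4427 (15.8%).

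**Figure D2:**
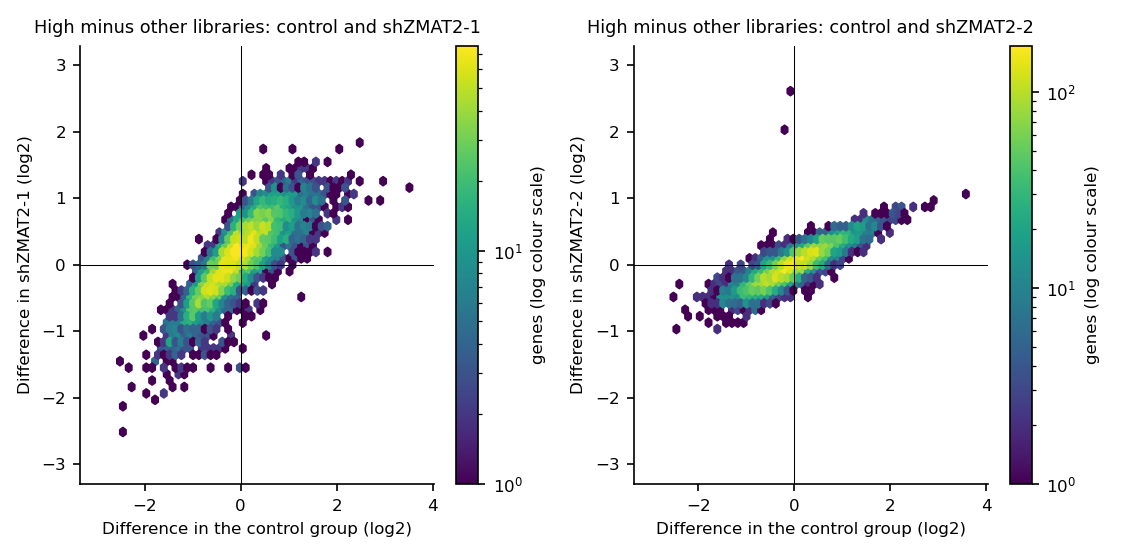
Difference of the high library from the other 2 of its group (log2) in control (horizontal axes) against shZMAT2-1 (left) and shZMAT2-2 (right) over 6416 genes, with the number of genes per hexagon on a log colour scale. The cloud runs from lower left to upper right in both panels (r = 0.82 and 0.87), and its vertical spread is narrower in shZMAT2-2.

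Transcripts of the genes at the 2 ends differed in base composition. To show it, 120 bases from the middle of the coding sequence are given for genes of the 24 named below, the 12 called genes with a symbol at each end of the mean difference, read from GENCODE release 29 transcripts (GRCh38) and written 5′ to 3′ with G and C in capitals. C4orf48 (chr4:2041995-2043964, forward strand) and PAXX (chr9:136992422-136993984, forward strand) have the GC-richest transcripts among the 12 lowered genes of this set, and RPS14 (chr5:150442635-150449739, reverse strand) the GC-poorest. CD302 (chr2:159768628-159798255, reverse strand) and KMT2E (chr7:104940943-105115019, forward strand) have the GC-poorest transcripts among its 12 raised genes, and CREB3L3 (chr19:4153631-4173054, forward strand) the GC-richest.
C4orf48: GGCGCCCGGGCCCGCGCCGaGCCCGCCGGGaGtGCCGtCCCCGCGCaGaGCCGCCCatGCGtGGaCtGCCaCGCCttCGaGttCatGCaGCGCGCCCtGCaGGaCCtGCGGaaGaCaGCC
PAXX: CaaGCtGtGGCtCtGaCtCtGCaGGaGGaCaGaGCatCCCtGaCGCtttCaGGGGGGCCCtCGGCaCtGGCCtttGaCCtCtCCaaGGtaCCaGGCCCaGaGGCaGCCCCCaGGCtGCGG
RPS14: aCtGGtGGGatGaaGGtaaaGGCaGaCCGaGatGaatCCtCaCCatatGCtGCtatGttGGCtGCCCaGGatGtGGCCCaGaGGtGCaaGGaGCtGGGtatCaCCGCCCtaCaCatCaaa
CD302: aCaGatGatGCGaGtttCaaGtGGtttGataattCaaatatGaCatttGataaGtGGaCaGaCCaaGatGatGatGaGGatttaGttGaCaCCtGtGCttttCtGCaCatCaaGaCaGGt
KMT2E: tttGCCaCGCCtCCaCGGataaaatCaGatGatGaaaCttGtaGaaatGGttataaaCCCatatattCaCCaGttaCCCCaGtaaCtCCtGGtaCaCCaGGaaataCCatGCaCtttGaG
CREB3L3: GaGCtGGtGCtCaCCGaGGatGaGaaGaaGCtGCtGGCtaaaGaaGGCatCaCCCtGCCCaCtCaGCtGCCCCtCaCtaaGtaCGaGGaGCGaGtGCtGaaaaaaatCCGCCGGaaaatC
G and C made up 76.7% of the C4orf48 stretch, 65.8% of PAXX and 54.2% of RPS14. They made up 38.3% of the CD302 stretch, 41.7% of KMT2E and 55% of CREB3L3, so the GC-richest raised gene and the GC-poorest lowered gene were alike by this measure. The median GC content of the whole transcript was 60.0% over the 12 lowered genes, 47.1% over the 12 raised and 49.8% over all genes compared.

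Over 6410 genes with a GENCODE transcript, GC content and length both went with the difference. In the decile of genes with the lowest GC content (31.1% to 39.2%), 56.5% were higher and 2.18% lower in the high libraries, and the median difference was 0.36. In the decile with the highest GC content (62.3% to 74.7%), 8.27% were higher and 58.2% lower, with a median of -0.29. By transcript length, the shortest decile (305 to 1262 bases) had 9.05% higher and 52.1% lower, and the longest decile (6445 to 27174 bases) 39.2% higher and 6.24% lower. The slope with GC content had the same direction in all 3 groups, with Spearman's rho of -0.34 in control, -0.51 in shZMAT2-1 and -0.57 in shZMAT2-2 across genes. For length rho was 0.35, 0.57 and 0.34. The mean level of a gene went with neither direction (rho -0.03).

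Both features together separated the genes further. Among 1010 genes in the lowest tertile of GC content and the highest tertile of length, 49.8% were higher and 2.18% lower, with a median difference of 0.39. Among 937 genes in the highest tertile of GC content and the lowest tertile of length, 7.15% were higher and 61.5% lower, with a median of -0.35. GC-poor short genes (441) had a median of -0.02 and GC-rich long genes (427) one of -0.03. For the gene lists below, the median departure from genes alike in both tertiles is given as the matched median. Their counts of higher and lower genes stand against a background of 27.7% of all genes in each direction. Whether base composition or length has a part in any single gene's difference was not tested.

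**Figure D3:**
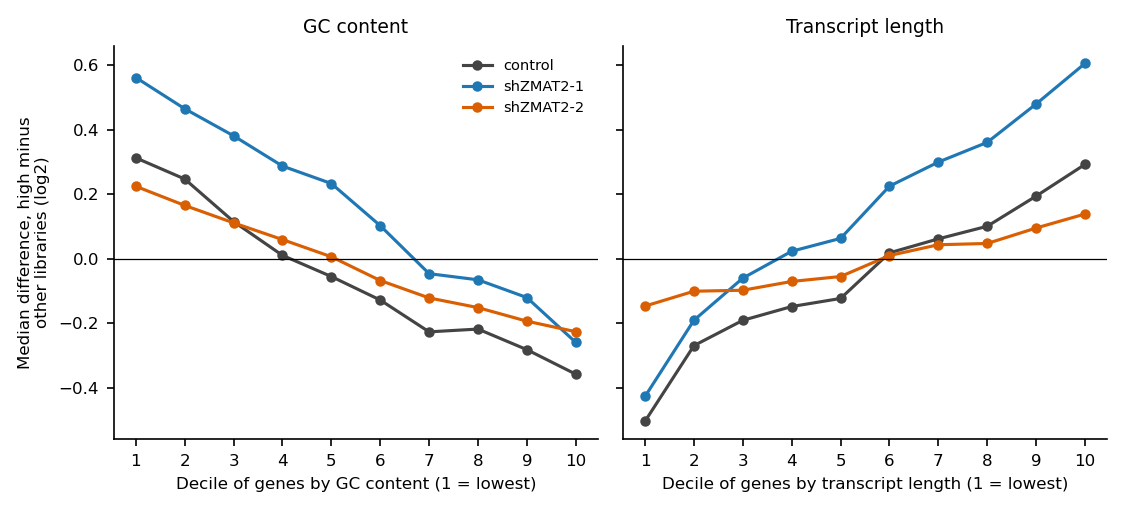
Median difference of the high library from the other 2 of its group (log2, vertical axis) in each decile of genes by GC content of the transcript (left) and by transcript length (right), 1 line per group. From the lowest to the highest decile of GC content the medians go from 0.31 to -0.36 in control, from 0.56 to -0.26 in shZMAT2-1 and from 0.23 to -0.23 in shZMAT2-2.

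Among the 12 called genes with a symbol and the largest mean difference, PLBD2, a phospholipase B-like protein of lysosomes, came first. It was at 30.7, 356 and 29.2 rescaled FPKM in control replicates 1, 2 and 3, at 26.6, 63.8 and 27.6 in those of shZMAT2-1 and at 126, 59.3 and 62.8 in those of shZMAT2-2. Values of later genes follow the same order of replicates. Its mean log2 difference was 1.92 ± 1.39 (SD, n = 3 groups), and the wide SD comes from the control group (3.53 against 1.21 and 1.03). TPP1, a lysosomal tripeptidyl peptidase, had 11.2, 92.2 and 11.1 in control, 9.14, 23.4 and 9.32 in shZMAT2-1 and 48.8, 23.4 and 24.1 in shZMAT2-2 (mean difference 1.73 ± 1.05). In both genes the high library of shZMAT2-1 was level with the 2 other libraries of shZMAT2-2, and these 3 held like shares of mitochondrial fragments. POLR2A, the largest subunit of RNA polymerase II, had 70.5, 518 and 66.3 in control, 59.6, 115 and 60.5 in shZMAT2-1 and 204, 110 and 113 in shZMAT2-2 (1.56 ± 1.16).

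CD302, a C-type lectin receptor, was next to PLBD2 with a mean difference of 1.75 ± 0.85. CREB3L3, a liver-enriched transcription factor anchored in the endoplasmic reticulum, had 1.51 ± 1.06, and KMT2E, a SET-domain chromatin regulator, 1.48 ± 0.71. KLF5 and TCF7L2, transcription factors, had 1.44 ± 0.71 and 1.38 ± 0.81, and CNOT4, a ubiquitin ligase tied to the CCR4-NOT complex, 1.43 ± 0.71. PROSER1 (1.53 ± 0.84), PRRC2C (1.48 ± 0.69) and ZBED3 (1.41 ± 0.68) made up the 12. CD302, CNOT4 and TCF7L2 reached 5 FPKM in only 1, 2 and 2 of the 6 other libraries, so they passed the filter through the high libraries and had to differ. All 12 were higher in the control group's high library by 2.05 to 3.53 on the log2 scale.

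Among the 12 called genes with a symbol and the lowest mean difference, MRPL12, a protein of the large mitochondrial ribosomal subunit, had 18.3, 2.61 and 18.5 rescaled FPKM in control, 31.9, 5.81 and 26.7 in shZMAT2-1 and 4.53, 5.31 and 6.49 in shZMAT2-2. Its mean difference was -1.63 ± 1.15 (SD, n = 3 groups), and in shZMAT2-2 all 3 libraries were low. RPS12, a protein of the small cytosolic ribosomal subunit, showed the same with 743, 233 and 701 in control, 963, 251 and 912 in shZMAT2-1 and 205, 232 and 280 in shZMAT2-2 (-1.28 ± 0.85). S100A6, a calcium-binding protein, had 23.5, 5.34 and 18.5 in control, 31.7, 6.85 and 28.8 in shZMAT2-1 and 6.44, 11.3 and 13.8 in shZMAT2-2 (-1.54 ± 0.60). For MRPL12 and RPS12 the within-group difference thus says little of shZMAT2-2, since its other 2 libraries were themselves far below those of the other groups. For S100A6 the difference within shZMAT2-2 was larger, at -0.86.

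PAXX, a factor of DNA end joining, had a mean difference of -1.37 ± 0.37, NME3, a nucleoside diphosphate kinase, -1.37 ± 0.77, and APRT, the adenine salvage enzyme, -1.31 ± 0.74. SELENOH, a nuclear selenoprotein, had -1.53 ± 0.79, C4orf48, a small secreted peptide, -1.53 ± 0.68, RPS14 -1.29 ± 0.69 and TRMT112, an activator of methyltransferases, -1.28 ± 0.76. RAB5IF (-1.63 ± 0.79) and TMEM141 (-1.61 ± 0.78) made up the 12. In all 24 genes, the 4 libraries with the lowest ratio of mitochondrial to nuclear FPKM did not overlap the 5 with the highest, which include shZMAT2-2 replicates 2 and 3. The genes were picked for their differences, so this is a description of the 24 and no test. Among the other named genes checked in this way, only RPS2, GAPDH, ALB, TFAM, ZMAT2 and APOB overlapped. The trait is therefore not particular to the 24, and its share over all genes compared was not counted.

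**Figure D4:**
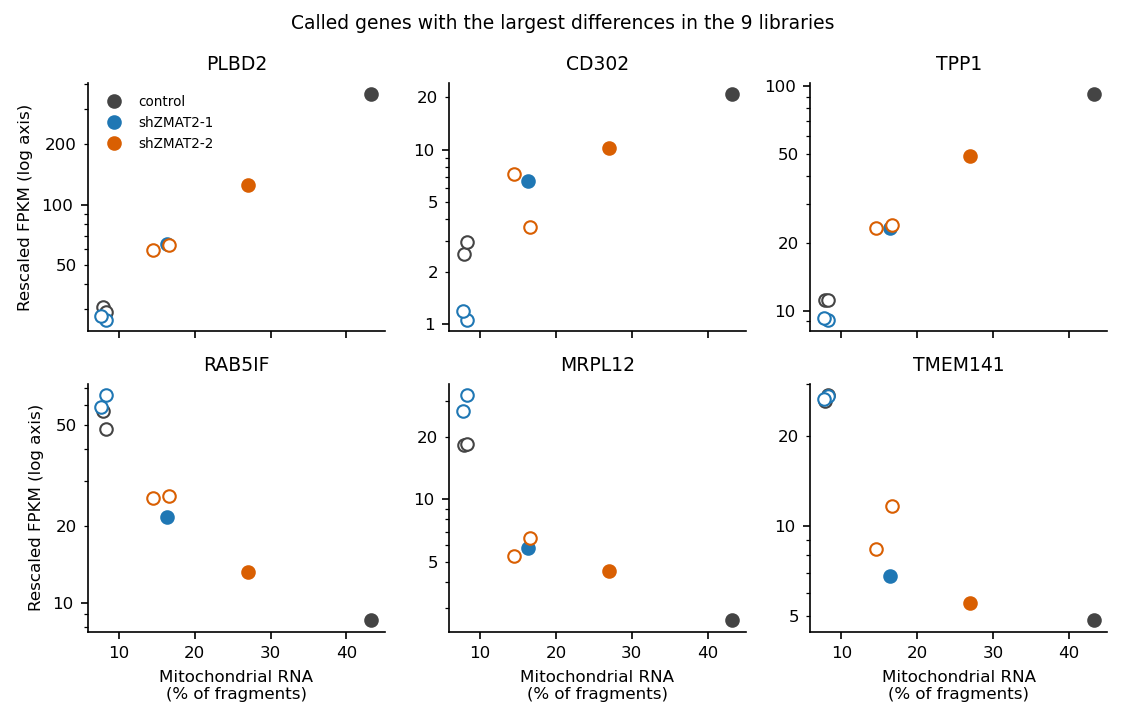
Rescaled FPKM (log axes) of the 3 called genes with a symbol and the largest mean difference and the 3 with the smallest, against the mitochondrial share of fragments (percent), 1 point per library, filled for the high libraries and coloured by group. PLBD2 goes from 26.6 to 30.7 in the 4 libraries of lowest share to 356 in control replicate 2, and RAB5IF from 48.2 to 65.5 down to 8.51.

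Most nuclear genes of the respiratory complexes were lower in the high libraries or not called. Of 27 compared nuclear subunits of complex I, 0 were higher and 12 lower, against 27.7% of all genes in each direction, and 24 had a mean difference below 0. The list's median was -0.47 (-0.48 in control, -0.78 in shZMAT2-1 and -0.05 in shZMAT2-2), where the median of all genes was 0.04. NDUFA8, an accessory subunit, had 47.0, 12.7 and 47.9 rescaled FPKM in control, 57.9, 29 and 59.6 in shZMAT2-1 and 18, 27.5 and 29.5 in shZMAT2-2. NDUFV1 and NDUFS3, core subunits, had mean differences of -0.94 ± 0.46 and -0.99 ± 0.58 (SD, n = 3 groups).

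Of 40 nuclear subunits of complexes II to V, 2 were higher and 20 lower, with a median of -0.48 and 35 below 0. ATP5F1B, the catalytic beta subunit of ATP synthase, had 432, 158 and 415 rescaled FPKM in control, 456, 265 and 444 in shZMAT2-1 and 202, 287 and 293 in shZMAT2-2. ATP5F1D (-1.05 ± 0.47) and COX8A of cytochrome c oxidase (-1.0 ± 0.75) were also lower. The 2 higher genes were ATP5PF, of the ATP synthase stalk (0.51 ± 0.33), and SDHB, of complex II (0.40 ± 0.14, but -0.07 with FPKM as deposited). Relative to genes alike in GC content and length, the complex I list stood at a median of -0.32 and the list of complexes II to V at -0.38, their matched medians.

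Mitochondrial ribosomal proteins were split. Of 69 compared, 9 were higher and 30 lower, with a median of -0.23, a matched median of -0.16 and a range from -1.63 (MRPL12) to 0.76 (MRPL37). MRPL37 had 45.3, 119 and 48.5 rescaled FPKM in control, 46.3, 63.8 and 41.3 in shZMAT2-1 and 92.9, 66.5 and 73.4 in shZMAT2-2, the opposite order to MRPL12. MRPL3 was also higher (0.75 ± 0.31) and MRPL54 lower (-1.07 ± 0.34). Members of 1 ribosome thus lay at both ends of the range.

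Of 25 genes of mitochondrial protein import, 4 were higher and 14 lower (median -0.33, matched median -0.15). TOMM7, a small subunit of the outer membrane translocase, had a mean difference of -1.10 ± 0.95, called in none of the directions because shZMAT2-2 replicate 1 lay between its 2 others. TIMM17B of the inner membrane translocase was lower (-0.82 ± 0.31), while TIMM10B, an intermembrane space chaperone, was higher, with 7.96, 28.1 and 7.55 rescaled FPKM in control, 6.34, 14.6 and 7.08 in shZMAT2-1 and 18.2, 13.8 and 11.6 in shZMAT2-2.

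Genes that keep and express mitochondrial DNA were found in both directions. Of 22 compared, 3 were higher (13.6%) and 7 lower (31.8%), against 27.7% of all genes in each direction. The median was -0.07 and the matched median -0.09, with 15 of the 22 below genes alike in GC content and length. TFAM, which packages mitochondrial DNA and starts its transcription, had 16.1, 18 and 15.5 rescaled FPKM in control, 11.2, 18.1 and 12.6 in shZMAT2-1 and 17.3, 17 and 12.9 in shZMAT2-2, a mean difference of 0.32 ± 0.22, and -0.13 with FPKM as deposited. HSD17B10, a subunit of mitochondrial RNase P, was lower (-0.67 ± 0.37), as was FASTK, which has a mitochondrial isoform that stabilises MT-ND6 RNA (-0.48 ± 0.18). Among 8 nuclear regulators of mitochondrial biogenesis, 5 were higher, with PPRC1 at 0.55 ± 0.33 and NFE2L2 at 0.46 ± 0.27, and 1 lower, the nuclear receptor ESRRA (-0.89 ± 0.40). Their median was 0.30 and their matched median -0.02.

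Of 13 mitochondrial chaperones and proteases, 3 were higher and 4 lower (median -0.04, matched median -0.22). The protease LONP1 was lower (-0.49 ± 0.20) and its counterpart CLPP higher (0.52 ± 0.44). Of 20 genes of mitochondrial dynamics and mitophagy, 8 were higher and 4 lower (median 0.07, matched median -0.07), with FIS1, an outer membrane fission protein, at -0.95 ± 0.52 and TAX1BP1, an autophagy receptor, at 0.76 ± 0.27. Of 21 tricarboxylic acid cycle genes, 4 were higher and 7 lower (median -0.09, matched median -0.15).

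**Figure D5:**
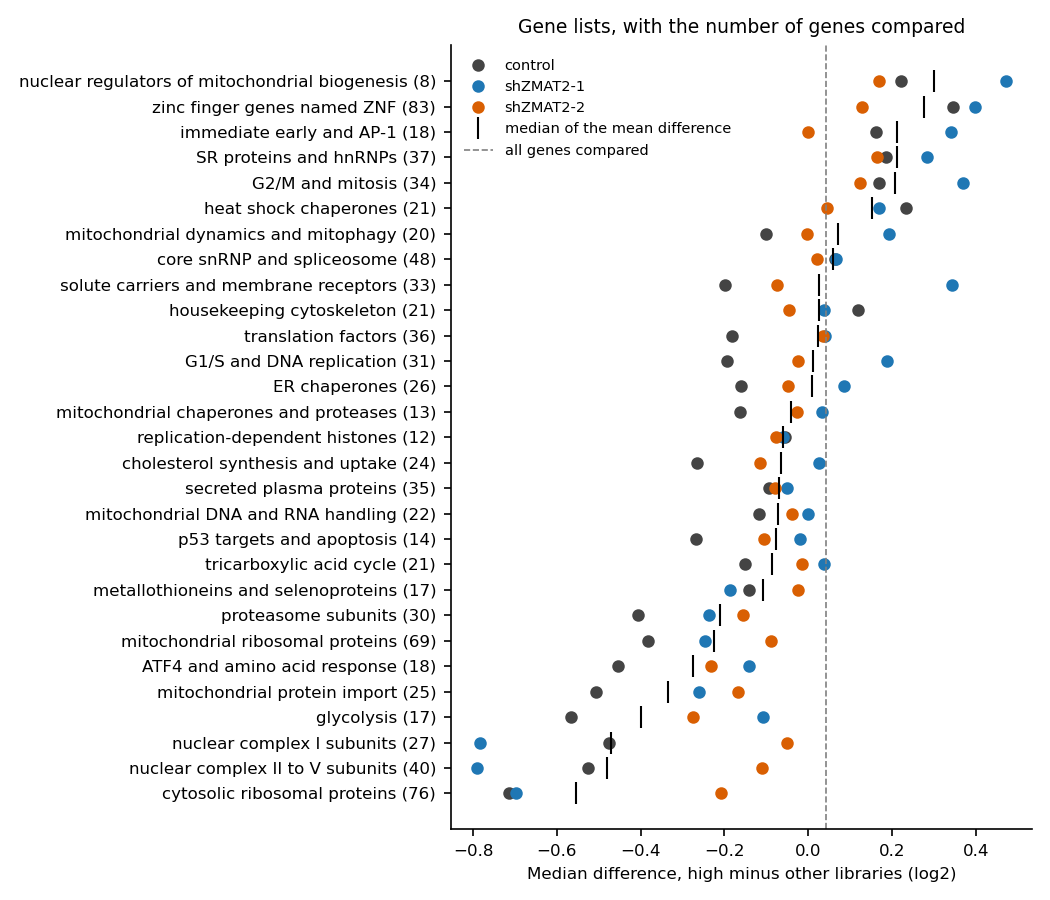
Median difference of the high library from the other 2 of its group (log2, horizontal axis), with the median of all 6416 genes as a dashed line. Shown are the gene lists with at least 8 genes compared, except cell type markers. Points give the groups, and bars the median over genes of each gene's mean difference over the 3 groups. Cytosolic ribosomal proteins lie lowest at -0.55 and regulators of mitochondrial biogenesis highest at 0.30.

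Outside the mitochondrion, the cytosolic ribosomal proteins had the lowest median of the lists plotted. Of 76 compared, 1 was higher and 48 lower, 68 had a mean difference below 0, and the median was -0.55 (-0.71 in control, -0.70 in shZMAT2-1 and -0.21 in shZMAT2-2). RPL41 had 815, 442 and 829 rescaled FPKM in control, 903, 401 and 891 in shZMAT2-1 and 410, 397 and 479 in shZMAT2-2. RPL7A and RPS2 were lower by means of -0.55 ± 0.26 and -0.46 ± 0.24. The higher gene was RPL26 (0.78 ± 0.67), with 24.7 in control replicate 2 against 7.57 and 7.93. These genes have many processed pseudogenes, among which the counting may have split reads. They are short, with a median transcript of 1029 bases, and their matched median was -0.40.

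Of 36 translation factors, 11 were higher and 12 lower, near the 27.7% of all genes in each direction (median 0.02, matched median -0.08). EEF1A1 and EEF1D, of elongation factor 1, were lower (-0.60 ± 0.40 and -0.75 ± 0.33), and EIF5B, which joins the ribosomal subunits, and EIF3A were higher (1.19 ± 0.67 and 0.85 ± 0.36). Of 30 proteasome subunits, 5 were higher and 16 lower (median -0.21, matched median -0.25), with the core subunits PSMA7 and PSMA5 at -0.90 ± 0.52 and -0.86 ± 0.43. Of 17 glycolysis genes, 0 were higher, 11 were lower and all 17 had a mean difference below 0 (median -0.40, matched median -0.34). ENO1, the enolase, had 341, 155 and 331 rescaled FPKM in control, 371, 224 and 348 in shZMAT2-1 and 186, 239 and 259 in shZMAT2-2. GAPDH, a reference gene in many assays, was not called, with 969 in control replicate 2 against 1019.5 and 1035. Of 18 genes of the ATF4 and amino acid response, a programme that mitochondrial stress can switch on, 2 were higher and 8 lower (median -0.27, matched median -0.16). ATF4 itself was at -0.28 ± 0.09, the amino acid transporter chain SLC3A2 at -0.88 ± 0.38 and DDIT4, an inhibitor of mTORC1, at -1.02 ± 0.33.

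Of 37 SR proteins and hnRNPs, which shape splicing, 21 were higher and 7 lower, against 27.7% of all genes in each direction (median 0.21, matched median 0.17). SRRM1, a splicing coactivator, had 20.8, 90.6 and 20.7 rescaled FPKM in control, 18.2, 45.9 and 19.1 in shZMAT2-1 and 66.3, 42.4 and 36.5 in shZMAT2-2. HNRNPUL1 was higher (1.07 ± 0.55), and HNRNPA0 and SRSF9 lower (-0.68 ± 0.43 and -0.61 ± 0.39). Core spliceosome genes, 16 higher and 13 lower of 48, were near that background (median 0.06, matched median 0.13), with SNRPB and LSM7 at -1.27 ± 0.61 and -1.14 ± 0.82 and SNRNP27 and PRPF38B at 1.20 ± 0.60 and 1.00 ± 0.45. Of 83 compared ZNF genes, 37 were higher and 11 lower (median 0.28, matched median 0.20), with ZNF107 at 1.13 ± 0.47, which reached 5 FPKM in 1 of the 6 other libraries, and ZNF428 at -0.73 ± 0.40.

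Of 34 genes of G2/M and mitosis, 16 were higher and 8 lower (median 0.21, matched median 0.19). MKI67, the proliferation marker, had 44.2, 122 and 41.6 rescaled FPKM in control, 25.3, 66.9 and 28.0 in shZMAT2-1 and 92.3, 71.7 and 50.3 in shZMAT2-2. CENPE, a kinetochore motor, was also higher (1.05 ± 0.42), but BIRC5, of the chromosomal passenger complex, and CDC20, an activator of the anaphase-promoting complex, were lower (-0.59 ± 0.28 and -0.50 ± 0.24). Of 31 genes of G1/S and DNA replication, 4 were higher and 9 lower (median 0.01, matched median -0.04). Of 18 immediate early genes, 5 were higher and 3 lower (median 0.21, matched median 0.26), with ZFP36, an mRNA decay factor, at 1.02 ± 0.44 and IER2 at -0.97 ± 0.57. Of 21 heat shock chaperones, 7 were higher and 2 lower (median 0.15, matched median 0.07). Endoplasmic reticulum chaperones (7 higher and 10 lower of 26), membrane receptors and solute carriers (3 and 7 of 33), genes of cholesterol synthesis and uptake (1 and 9 of 24) and p53 targets and apoptosis genes (2 and 7 of 14) had medians between -0.08 and 0.03. Their matched medians, in the same order, were -0.14, -0.09, -0.14 and -0.08. In that order, 26.9%, 9.09%, 4.17% and 14.3% of these lists were higher and 38.5%, 21.2%, 37.5% and 50% lower. The share of all genes was 27.7% in each direction. Replication-dependent histones (1 and 3 of 12) and metallothioneins and selenoproteins (4 and 6 of 17) had medians of -0.06 and -0.11 and matched medians of 0.05 and 0.07, and of 31 interferon-stimulated genes in the table only 4 could be compared. Of 21 cytoskeleton genes, 6 were higher and 8 lower (median 0.03, matched median 0.28): TUBA1C and PFN1 had 1.01 ± 0.63 and 0.86 ± 0.57, MYL6 and TMSB10 -0.94 ± 0.55 and -0.81 ± 0.46.

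The liver identity of the cells was checked with 8 hepatocyte genes, all of them compared (median 0.03, matched median -0.14). Their summed level was 5015 to 5158 rescaled FPKM in the high libraries and 4740 to 5153 in the others. ALB, albumin, was at 2110, 2138 and 2135 in the high libraries of control, shZMAT2-1 and shZMAT2-2 and at 2004 to 2179 in the others, and was not called. Within the list APOA1, of high-density lipoprotein, was lower, with 376, 108 and 383 in control, 508, 190 and 514 in shZMAT2-1 and 157, 195 and 263 in shZMAT2-2. APOB, of low-density lipoprotein and with a far longer message, was higher (0.96 ± 0.53). Of 35 secreted plasma proteins, 10 were higher and 14 lower (median -0.07, matched median -0.03), with SERPING1 and F5 at 1.35 ± 0.88 and 1.27 ± 0.66 and APOC1 at -1.08 ± 0.51. Markers of other cell types were near 0: summed over 6 genes each, fibroblast markers reached 2.17 to 3.15 in the high libraries and 2.72 to 3.55 in the others, and leukocyte markers 4.20 to 5.21 and 5.56 to 7.93. Endothelial markers, 5 of 6 in the table, reached 1.29 to 1.92 and 1.23 to 1.84. None of these markers was at 0 in all libraries, and 1 of them was compared, CD14, a monocyte receptor gene that hepatocytes also express, at up to 7.41.

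The targeted gene differed between the high and other libraries as well. ZMAT2 was at 33.4, 51.9 and 34.6 rescaled FPKM in control, 12.6, 13.5 and 11.2 in shZMAT2-1 and 27.0, 21.1 and 20.7 in shZMAT2-2. The high library was the highest of its group each time, by a mean of 0.37 ± 0.21 on the log2 scale, but by -0.09 with FPKM as deposited. TRIM28, the corepressor named in the study's title, was at 133, 83.3 and 131 in control, 158, 113 and 148 in shZMAT2-1 and 88.2, 103 and 124 in shZMAT2-2. It was lower in the high library of each group (-0.48 ± 0.16), so the level of a gene named in the study's title depended on which library of a group was read.

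The study's own comparison, both arms against control, was therefore fitted with and without regard to the high libraries, with limma on the rescaled values and Benjamini-Hochberg adjustment over the 6416 genes at 0.05. With group as the only term, 72 genes were higher (1.12%) and 23 lower (0.358%) in the mean of the arms, 95 in all. With a term for the 3 high libraries, 273 were higher (4.25%) and 120 lower (1.87%), and the median residual SD went from 0.23 to 0.15. Without the 3 high libraries, 528 were higher (8.23%) and 374 lower (5.83%). The count of 95 fell to 34 to 50 when any 1 of 7 libraries was left out, all but control replicate 2 (129) and shZMAT2-1 replicate 2 (101). All 95 genes were also called, with the same sign, in both of the other fits. With 1 high library per group the term leaves each difference unchanged, so the sign in that fit was fixed by the design. Without the 3 libraries the shZMAT2-2 pair held 14.5% and 16.6% mitochondrial fragments against 7.70% to 8.28% in the other 4, so within that fit the shZMAT2-2 hairpin and the mitochondrial share cannot be told apart. Since the term was defined from measured values, the larger counts are given as a description. Of the 902 genes called without the 3 libraries, 538 (59.65%) were also called in the high libraries, against 55.4% of all genes. Of these 538, 441 (82%) had the direction of the high libraries and 97 the opposite one. With the term, 186 of 393 were such genes, 97 in that direction and 89 in the opposite one. What part spread and direction each have in the counts was not tested.

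Genes called in each of these fits include VIM, the intermediate filament vimentin, higher in the arms by 1.45 on the log2 scale (SE 0.0898, limma adjusted p = 0.00051, and 8.03e-06 with the term). ZMAT2 fell by 1.17 on the log2 scale (SE 0.162, limma adjusted p = 0.00998). With the term the SE was 0.0926 and the limma adjusted p 5.23e-05, and without the 3 high libraries the difference was -1.06. TRIM28 had a difference of 0.08 (SE 0.192, limma adjusted p = 1.0), and 0.684 was its limma adjusted p with the term. Without the 3 high libraries its difference was -0.0034 (SE 0.0817, limma adjusted p = 0.982). A change of TRIM28 at the gene level was not detectable in any of these fits, and its splicing was not measured here.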

How the data were processed

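Poly(A) RNA of 9 Huh7 libraries was sequenced strand-specifically, per the labels' protocols. The deposited table gives FPKM for 27421 genes, which the authors scaled to library depth. Per the submitters' processing notes, the tools were HISAT, featureCounts and DESeq2, with no version. Genome build and annotation are not given in the sources used here. GENCODE release 29 holds 25089 of the gene IDs, 25081 of them at an overlapping position. Single-exon genes gave the depth behind the deposited FPKM, 18280000 to 23550000 fragments, at which 100% of 585 to 691 values per library were whole fragments within 0.1.

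Each library was rescaled to the mean nuclear sum of 183801 FPKM, and 1 was added before log2, which understates the change of low genes. Nuclear protein-coding genes that reached 5 FPKM in 3 or more libraries were compared. One GENCODE transcript per gene, by APPRIS rank and then coding length, gave GC content and length. Whether it is the isoform that these cells express was not tested, which limits the GC, length and matched values. limma 3.58.1 in R 4.3.3, with a trend and group as the only term, tested the mean of both arms against control. It was also run on simulated data with independent noise for each gene and library, which does not test it under deviations that genes share. The rest used Python 3.11.15, numpy 2.4.6, pandas 2.3.3, scipy 1.17.1 and matplotlib 3.10.9.

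The libraries, members and 37 gene lists were chosen with earlier results of these data known. Named genes are ZMAT2 and TRIM28, the 13 mitochondrially encoded genes, the 12 called genes with a symbol at each end of the mean difference, and per list the 3 members with the highest mean FPKM and the 2 at each end. Genes outside this rule are named as such, as is VIM, the called gene with the smallest p. The alternatives were FPKM as deposited, median-of-ratios and quantile scaling, a pseudocount of 0.1, a filter of 1 FPKM and none, genes of every type, each library left out, a replicate block, no trend, the fits on the high libraries and, chosen after seeing the data, a filter on the 6 other libraries alone.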

Additional observations from a re-analysis of the deposited data

How the results depend on the processing

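With FPKM as deposited, 374 genes were higher and 3479 lower in the high libraries, 9 and 531 by at least 1 on the log2 scale. Of the called genes 9.71% were then higher, against 50% with nuclear rescaling and 45.0% to 58.1% in the other settings. A filter of 1 FPKM gave 2875 higher and no filter 3588, since more genes were compared. A pseudocount of 0.1 gave 169 and 112 by at least 1. Leaving out 1 library gave 1795 to 2668 higher and 1787 to 2291 lower, and by at least 1, 22 to 267 higher and 20 to 194 lower. The lowest of these, 22 and 20, came without control replicate 2, and the highest, 267 and 194, without shZMAT2-2 replicate 1.

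Of 30 list medians, taken relative to the median of all genes, 2 were counted as reversed in any alternative, both with no filter. They were mitochondrial DNA and RNA handling (0.0061) and endoplasmic reticulum chaperones (0.017). This count leaves out other changes of sign. With each library left out in turn, core spliceosome genes ranged from -0.064 to 0.038 and membrane receptors and solute carriers from -0.14 to 0.080. Cytoskeleton genes ranged from -0.091 to 0.080. Changes of sign were also seen for DNA replication, mitochondrial dynamics, hepatocyte genes and translation factors. The direction of these lists therefore depended on the libraries used. Of 91 genes named in the report, 3 reversed, each with FPKM as deposited: TFAM (-0.13), ZMAT2 (-0.086) and SDHB (-0.065). A reversal was counted only for genes called in the main setting. A change of sign in a gene that was not called, such as ALB or GAPDH, would not be among them.

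The count of genes called in the mean of the arms, 95 (599 at an unadjusted p under 0.05), was 27 with FPKM as deposited, 180 and 281 with a filter of 1 FPKM and none, 393 with the term for the high libraries and 902 without them. It was 34 to 129 with 1 library left out. Losing control replicate 1 or 3 left 38 or 34 genes, losing shZMAT2-1 replicate 1 or 3 left 50 or 39, losing shZMAT2-2 replicate 1, 2 or 3 left 45, 42 or 41, and losing control replicate 2 gave 129. The cause of these changes was not tested. With the replicate number as a block it was 73. The labels give no meaning to the number, same-numbered libraries correlated from -0.85 to 0.83 in their deviations from the group mean, and a library correlated best with its own number in 8 of 18 cases, so the samples share only a number.

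The 3 libraries are 1 per group, which limits every difference to 3 values. The FPKM carry no isoform, and RNA quality was not measured in the files.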

Other observations

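Nuclear noncoding genes, nearly all of them long noncoding RNAs, were compared in the same way. Of 147 that reached 5 FPKM in 3 or more libraries, 40 were higher (27.2%) and 33 lower (22.4%) in the high libraries, with a median of 0.08. These counts include a few entries that the deposited table types as artifact, some of them among the lower genes. The noncoding host genes of small nucleolar RNAs, whose introns carry guide RNAs for ribosomal RNA modification, were lower or not called. Of 11 compared from a list, 0 were higher and 6 lower, with a median of -0.46. The 1 coding host compared from that list was higher (0.27 ± 0.07 on the log2 scale, SD, n = 3 groups). SNHG32 had 27.9, 5.19 and 27.9 rescaled FPKM in control replicates 1, 2 and 3, 25.7, 9.77 and 26.8 in shZMAT2-1 and 6.83, 11.7 and 10.6 in shZMAT2-2. SNHG7, SNHG29, SNHG15 and SNHG12 were also lower, by means of -1.09, -0.91, -0.79 and -0.68 on the log2 scale. SNHG6, named after its values were seen like the other hosts here, went the other way in control, with 48.8 in control replicate 2 against 23.2 and 26.5.

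UCA1, a long noncoding RNA of carcinoma cells, was named after its values were seen. It had 20.4, 98.8 and 20.5 rescaled FPKM in control, 18.9, 41.4 and 15.9 in shZMAT2-1 and 59.9, 40.9 and 39.8 in shZMAT2-2. TUG1, which the deposited table lists as coding, was higher too (0.72 ± 0.40, SD, n = 3 groups).

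Some genes had opposite directions between groups, and the following were named after their values were seen. ATP5ME, a subunit of ATP synthase, had 5.62, 14.8 and 5.66 rescaled FPKM in control and 7.07, 5.30 and 8.02 in shZMAT2-1, and AHNAK, a giant scaffold protein, 15.6, 7.23 and 13.4 in control and 10.4, 15.6 and 12.4 in shZMAT2-1. EIF3C, which has a near-identical copy that makes its counting uncertain, had 32.9 in shZMAT2-2 replicate 1 and 3.81 to 14.1 in the other 8 libraries.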
